A study of Mus musculus with 6 samples.

Results

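The genes described here are 42 genes of mitosis and cytokinesis, chosen by symbol for what their products do in cell division, out of 36291 gene rows counted in the series. All 42 were found under those symbols and all passed the filter on low counts, with 160 to 6043 reads per gene and library. The series concerns cortical interneuron migration and the transcription factor Zeb2, which its title calls Sip1. RNA came from green fluorescent cells sorted from E14.5 telencephalon, in embryos of the Swiss strain of mouse. There were 3 knockout (KO) libraries, labelled as knockouts of Sip1 with Nkx2-1, and 3 wild-type (WT) libraries. Cells of both genotypes had been targeted by an Nkx2-1 iCre driver and carried its eGFP label, so KO and WT share the driver and the reporter. The driver acts in the Nkx2-1 domain of the ventral forebrain, largely the medial ganglionic eminence (MGE), so the KO acts in that lineage and not in the whole embryo. Each genotype has 1 library for each of the numbers K77, K79 and K80, the first part of its title, whose meaning the labels do not give, and the labels do not tie a library to an embryo. The p-values therefore rest on how far these libraries vary, which may in part be technical.

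Mitosis separates the replicated chromosomes, and cytokinesis then divides the cell. Cyclin-dependent kinase drives the entry, condensins compact the chromosomes, kinesins and their partners build the spindle, and a checkpoint holds the anaphase-promoting complex back until every chromosome is attached. The transcripts of these proteins are made mainly in the G2 and M phases. In the embryonic ventral forebrain the dividing cells are the progenitors of the ventricular and subventricular zones, while migrating interneurons have left the cell cycle. The RNA is a bulk measure of sorted cells, so fewer dividing cells and less RNA per dividing cell cannot be told apart in any value below.

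Promoters of such genes commonly hold a cell cycle genes homology region (CHR), bound by the MuvB core of the DREAM and MYB-MuvB complexes, and CCAAT boxes bound by NF-Y. RefSeq promoter windows (GRCm38.p6, 250 bases before to 50 bases after a start) were matched by symbol for 35 of the 42 genes, in 37 windows, since Ect2 and Prc1 each have a pair of overlapping windows. Aurkb, Ccna2, Cdc25c, Incenp, Kif20a, Smc4 and Tpx2 had none. The windows of Kif15, Ncapg and Ube2c are shown because these are the 3 genes with the lowest p between KO and WT among those whose window holds a CHR match. Each is given from 250 bases before the start up to the base before it, 5′ to 3′ on the plus strand, which is the strand of all 3 genes. Capitals mark matches on either strand to TTTGAA or TTCGAA (CHR) and to CCAAT.
Kif15, chr9:122950831-122951080: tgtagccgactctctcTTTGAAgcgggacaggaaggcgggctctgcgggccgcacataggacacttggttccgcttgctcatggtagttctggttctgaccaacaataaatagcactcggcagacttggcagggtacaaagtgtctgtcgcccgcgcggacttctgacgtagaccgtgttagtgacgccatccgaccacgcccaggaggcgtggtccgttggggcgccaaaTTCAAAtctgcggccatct
Ncapg, chr5:45669675-45669924: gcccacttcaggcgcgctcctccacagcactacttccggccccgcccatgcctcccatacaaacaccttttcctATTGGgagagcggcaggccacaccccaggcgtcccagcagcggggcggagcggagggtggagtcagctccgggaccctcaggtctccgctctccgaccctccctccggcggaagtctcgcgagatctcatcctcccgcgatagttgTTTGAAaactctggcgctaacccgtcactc
Ube2c, chr2:164769679-164769928: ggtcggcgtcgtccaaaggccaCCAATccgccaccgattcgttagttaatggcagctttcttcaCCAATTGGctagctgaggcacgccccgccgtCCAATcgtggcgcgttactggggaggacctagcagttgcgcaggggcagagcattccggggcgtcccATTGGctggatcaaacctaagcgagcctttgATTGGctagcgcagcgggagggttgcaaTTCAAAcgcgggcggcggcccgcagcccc
The CHR match nearest the start begins 19 bases before it in Kif15, 30 bases in Ncapg and 29 bases in Ube2c. Kif15 holds a further CHR match and no CCAAT match, Ncapg holds 1 CCAAT match, and Ube2c holds 6, of which 2 overlap each other. That all 3 windows hold a CHR match follows from how they were chosen. The nearest match begins 19 to 30 bases before the start, and CCAAT matches vary in number.

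Over all windows of the 42 genes, 30 of 37 (81.1%) held a CHR match, against 6316 of 32851 (19.2%) in the whole RefSeq table and 13.2% of the 11857 windows of genes tested here. Counting once a match that lies in both windows of a gene, there were 40 CHR matches, of which 26 began within 50 bases of a start. A CCAAT match was in 30 of 37 windows (81.1%), against 37.4% of all windows, and 25 of the 35 genes held both. The core letters of a Zeb2 site, CACCT on either strand, were in 16 of 37 windows (43.2%), against 51.9% of all windows. The longer form CACCTG, which contains CACCT, was in 3 (8.11%), against 20.2%. Among the 11857 windows of genes tested, CCAAT was in 37.5%, CACCT in 50.3% and CACCTG in 17.9%. In a shorter window, from 150 bases before to 50 after the start, CACCT was in 10.8% of the 37 and in 38.5% of all windows. These are matches of letters and not tests of binding, and the whole table includes genes of many kinds. No other letters were counted. CHR and CCAAT matches were in a larger share of these windows than of all windows, and CACCT and CACCTG in a smaller share. Whether Zeb2 acts on these promoters was not tested.

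Reads assigned to genes totalled 8323531 to 11069437 in KO and 9196406 to 10558698 in WT libraries. CPM are read counts scaled to each library's total over the genes that passed the filter on low counts, with TMM factors. Zeb2, the targeted gene, stood at 343, 272 and 307 CPM in KO K77, K79 and K80. In WT it stood at 705, 513 and 768 CPM in the same order of numbers. The labels do not give the deleted part. A list of 10 genes of the MGE lineage, which includes Dlx and Gad genes, was summed in each library. The sum ran from 6035 to 6970 CPM in KO and from 5171 to 5860 CPM in WT. By edgeR (adjusted p under 0.05) 3 of the 10 were called higher and 1 lower, against 3.64% and 2.62% of all genes tested. The library labelled WT K79 held 26109 reads of Xist, which is made from the inactive X of female cells, and 3 of the Y-linked gene Ddx3y, where the other 5 libraries held 13 to 28 of Xist and 532 to 864 of Ddx3y. Whether sex bears on the values below was not tested, and the main counts below are also given without that library. CPM does not correct for gene length, so levels are compared between libraries and not between genes.

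Transcripts of the mitosis and cytokinesis genes had lower fitted levels in KO than in WT cells, by less than 0.5 on the log2 scale for all but 2 of them (Aurkb and Ncapd2). The fitted log2 fold change, KO over WT, was below 0 for all 42, with a median of -0.31 and a range of -0.57 (Aurkb) to -0.17 (Cenpf). Across all 13835 genes tested, 51.5% were below 0 and the median was -0.006. By edgeR's quasi-likelihood test, adjusted over all genes tested, 6 of the 42 fell (Ccna2, Kif15, Ncapg, Ube2c, Birc5 and Smc2), 0 rose and 36 were not called, where 2.62% of all genes tested were called lower and 3.64% higher. At an unadjusted p under 0.05, 30 of the 42 were lower and 0 higher, where 1161 of the 13835 genes tested were lower and 1378 higher. DESeq2 called 6 of the 42 lower (2.8% of all genes) and limma voom 7 (2.62% of all genes), and both called 0 higher. With the K number as a block 26 of the 42 fell and 0 rose, against 4.45% of all genes called lower and 6.13% higher. In 21 of the 42, every KO library lay below every WT library, against 11.4% of all genes tested, and in the other 21 the genotypes overlapped. In 0 of the 42 did every KO library lie above every WT library, against 11.8% of all genes. In the unblocked edgeR fit, the only one from which libraries were left out, the number called rests on single libraries. It was 1 without KO K79 (1.5% of all genes) and 11 without KO K77 (2.0% of all genes). It was 0 without KO K80 (1.25% of all genes) and 2 without WT K79 (2.84% of all genes). At an unadjusted p under 0.05 by edgeR, 13 of the 42 were lower without KO K80, against 884 of 14001 genes tested. Without WT K79 17 of the 42 were, against 1191 of 14032 genes tested.

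**Figure D1:**
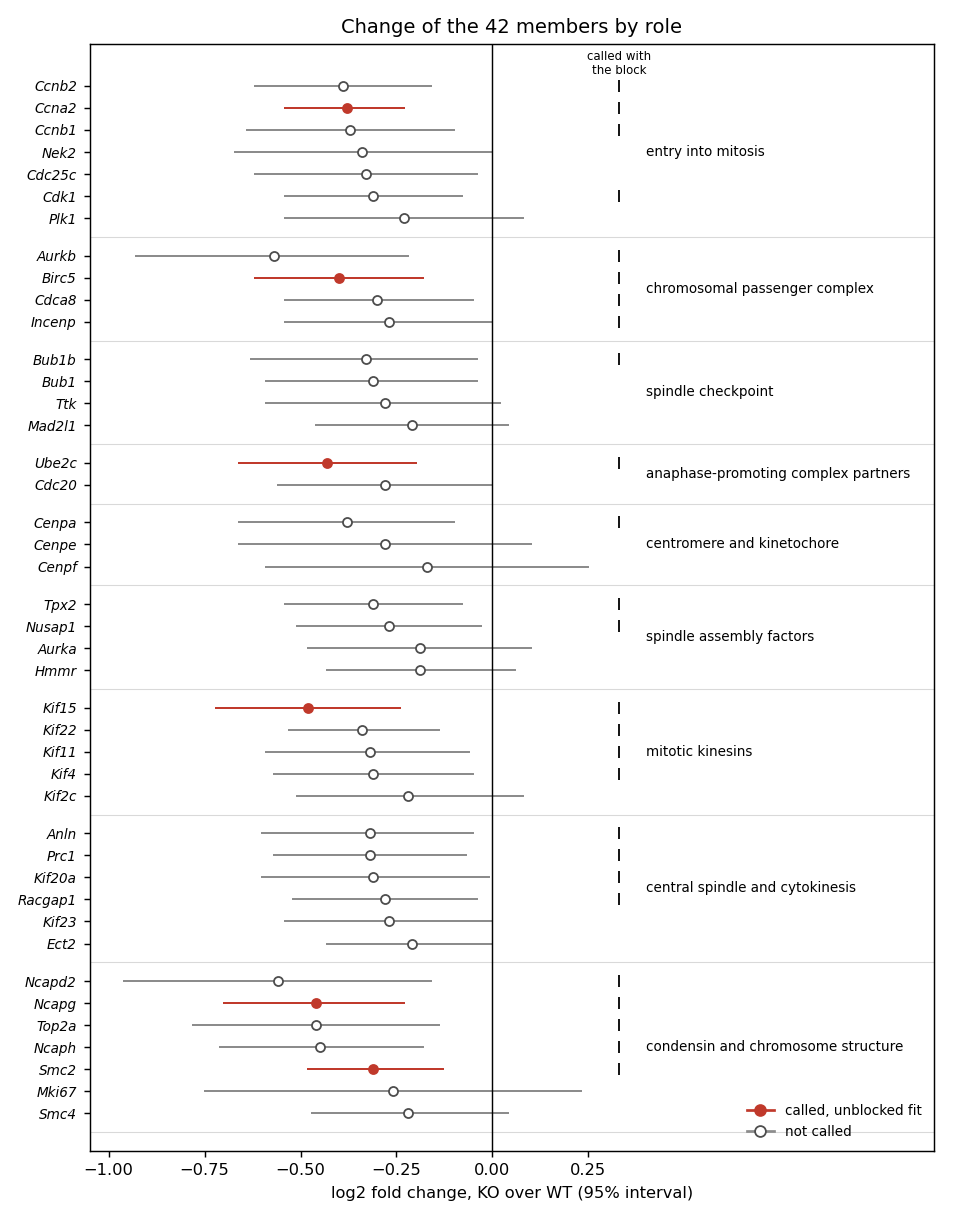
Log2 fold change of each of the 42 genes, KO over WT, with its 95% interval from edgeR (horizontal axis), grouped by role down the page. Filled red points are the 6 genes called in the unblocked fit, open points are not called, and a tick marks the 26 genes called with the K number as a block. All 42 points lie left of 0, between -0.57 and -0.17.

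The mean log2 CPM over the 42 genes was 5.79, 5.72 and 5.46 in KO K77, K79 and K80, against 5.92, 6.14 and 5.87 in WT in the same order. All 3 KO means lay below all 3 WT means, with KO K80 the lowest and WT K79 the highest. The genotype means were 5.66 ± 0.17 in KO and 5.98 ± 0.14 in WT (SD, n = 3 each), a difference of -0.32 on the log2 scale, or -19.9%. Within a number, KO minus WT was -0.14 for K77, -0.42 for K79 and -0.40 for K80. In K77 36 of the 42 genes were lower in KO, and in K79 and K80 all 42 were. The share of all genes lower in KO within a number is not given here, so these counts have no background beside them. WT K79 was the highest library for 36 genes and KO K80 the lowest for 38, so the same 2 libraries mark the ends of the range for most of the genes. Leaving out a library gave differences from -0.38 (without KO K77) to -0.22 (without KO K80), with -0.24 without WT K79. No p is given for this mean, since its genes were chosen together.

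**Figure D2:**
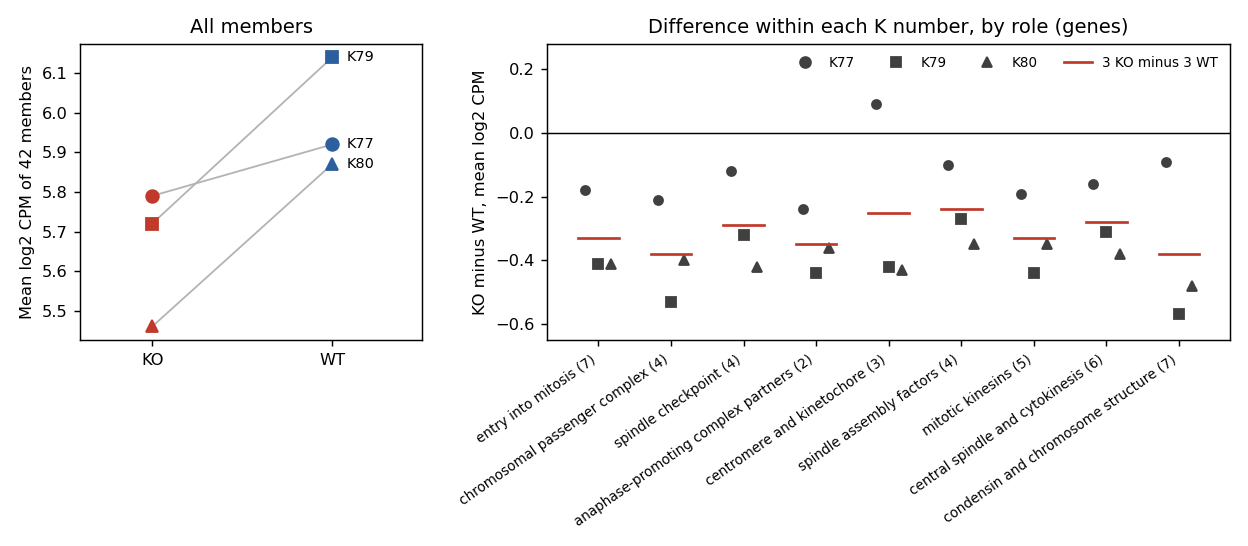
Left, mean log2 CPM of the 42 genes in each library, with lines joining the KO and WT libraries of the same K number. Right, KO minus WT within each K number for each role group (points) and between the genotype means (red bars). The K77 differences lie nearest 0 in every group, and above 0 at 0.09 for the centromere and kinetochore genes.

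Beside the counts of each role group below, 2.62% of all genes tested were called lower in the unblocked fit and 4.45% with the block. Of the 7 genes of mitotic entry, 1 fell and 6 were not called, with a median of -0.34. Ccna2 encodes cyclin A2, which acts in S phase and at mitotic entry. Its level was 77.56, 83.09 and 76.79 CPM in KO K77, K79 and K80, against 100.1, 110.4 and 99.39 CPM in WT in the same order. KO and WT did not overlap, and the 3 KO values lay close together. Ccna2 fell by 0.38 on the log2 scale (SE 0.0686, edgeR adjusted p = 0.00845), a call kept without each library in turn except KO K80 (adjusted p = 0.0568). Of the 36-base windows of its transcript 16.3% also lie in the neighbouring gene Exosc9, so reads from there are uncertain. Ccnb1, which encodes cyclin B1, the main partner of the mitotic kinase Cdk1, had 22.4, 25.5 and 19.9 CPM in KO, against 27.5, 33.0 and 26.9 CPM in WT. Its groups did not overlap, and it was not called (log2 fold change -0.37, SE 0.122, edgeR adjusted p = 0.124, and 0.025 with the block). Reads of Ccnb1 are uncertain as well, since 45.8% of its 36-base windows are shared, mainly with the pseudogene Ccnb1-ps. Ccnb2, for cyclin B2, averaged 22.6 ± 2.80 CPM in KO and 29.5 ± 0.671 CPM in WT (SD, n = 3 each), with an edgeR adjusted p of 0.0579, 0.0259 with the block and 0.0251 without KO K77. Limma voom called Ccnb2 lower (adjusted p = 0.0491).

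Cdk1, the kinase that drives entry, had 46.3, 45.2 and 37.6 CPM in KO, against 49.5, 58.5 and 51.6 CPM in WT. Each KO value was below each WT value, with KO K77 and WT K77 only a little apart (log2 fold change -0.31, SE 0.101, edgeR adjusted p = 0.119, and 0.0442 with the block). Plk1 encodes the polo-like kinase that acts at the centrosomes and kinetochores. It had 19.8, 20.1 and 17.5 CPM in KO, against 22.9, 26.0 and 18.2 CPM in WT. The genotypes overlapped, and the 95% interval of its log2 fold change ran from -0.54 to 0.08 (edgeR adjusted p = 0.452). Plk1 shares 16.5% of its 36-base windows with other transcripts, including Plk-ps1. The phosphatase gene Cdc25c, which activates Cdk1, and the centrosomal kinase gene Nek2 had log2 fold changes of -0.33 and -0.34 and were not called with or without the block. Leaving out KO K77 gave a call for Cdc25c (edgeR adjusted p = 0.0466).

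The chromosomal passenger complex corrects faulty attachments of chromosomes to the spindle and later acts in cytokinesis. Of its 4 genes 1 fell, and all 4 fell with the block, against 2.62% and 4.45% of all genes tested. Birc5 encodes survivin, which places the complex at the centromere. It had 19.36, 17.96 and 16.77 CPM in KO, against 24.21, 23.99 and 22.97 CPM in WT. The groups lay apart by more than the range within either one. Birc5 fell by 0.40 (SE 0.1, edgeR adjusted p = 0.0446), a call lost without any 1 library (adjusted p 0.0515 to 0.188) and by DESeq2 (0.112). Aurkb, the kinase of the complex, had the lowest fold change of the 42, with 32.7, 24.9 and 23.2 CPM in KO, against 39.3, 47.5 and 32.6 CPM in WT. KO K77 and WT K80 were nearly equal, so the groups overlapped (log2 fold change -0.57, SE 0.159, edgeR adjusted p = 0.0671, 0.0157 with the block, 0.0267 without KO K77 and 0.0302 without WT K80). DESeq2 called Aurkb lower (adjusted p = 0.0113). The borealin gene Cdca8 and the scaffold gene Incenp stood at -0.30 and -0.27, and were called with the block and not without it. Cdca8 was also called without KO K77 (edgeR adjusted p = 0.0364).

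The spindle checkpoint genes were not called in the unblocked fit, 0 of 4 by edgeR, DESeq2 or limma voom, with 2 at an unadjusted p under 0.05 by edgeR. Bub1, a checkpoint kinase of the kinetochore, had 57.6, 52.2 and 43.8 CPM in KO, against 58.9, 73.9 and 57.5 CPM in WT. KO K77 was level with WT K80 and the genotypes overlapped (log2 fold change -0.31, SE 0.123, edgeR adjusted p = 0.197). Bub1b, which encodes the checkpoint protein BubR1, averaged 68.6 ± 12.4 CPM in KO and 86.4 ± 10.3 CPM in WT (SD, n = 3 each). It was called with the block alone among these 2 fits (adjusted p = 0.0111). The kinase gene Ttk (-0.28) and Mad2l1 (-0.21), whose product binds Cdc20 in the inhibitory complex, were called in neither fit.

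Of the 2 partners of the anaphase-promoting complex, Ube2c fell and Cdc20 was not called. Ube2c, the ubiquitin-conjugating enzyme that works with that complex, had 22.73, 20.03 and 19.22 CPM in KO, against 26.61, 30.04 and 26.49 CPM in WT. Every KO value lay below every WT value. Ube2c fell by 0.43 (SE 0.104, edgeR adjusted p = 0.0391), a call kept without KO K77 and lost without any other library (adjusted p 0.0614 to 0.174) and by DESeq2 (0.0587). Of its 36-base windows 22.4% are shared with other transcripts, mainly of its neighbour Tnnc2. Cdc20, the activator that brings substrates to the complex, averaged 21.1 ± 2.50 CPM in KO and 25.6 ± 3.12 CPM in WT (SD, n = 3 each), with an edgeR adjusted p of 0.278. It also shares 22.4% of its 36-base windows, with transcripts that include Gm7856.

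Among the 3 centromere and kinetochore genes 0 were called by edgeR, DESeq2 or limma voom, with 1 at an unadjusted p under 0.05 by edgeR and 1 called with the block. Cenpa, the histone H3 variant that marks centromeres, had 45.2, 37.9 and 31.7 CPM in KO, against 50.8, 53.3 and 44.4 CPM in WT. KO K77 lay just above WT K80 (log2 fold change -0.38, SE 0.126, edgeR adjusted p = 0.128, 0.0198 with the block and 0.0381 without KO K77). Cenpf, a large protein of the outer kinetochore, had 144.5, 182.7 and 136.1 CPM in KO, against 119.0, 218.9 and 183.7 CPM in WT. The WT values spanned all the KO values, and K77 was higher in KO than in WT. The log2 fold change of Cenpf was -0.17 with a 95% interval from -0.59 to 0.25, and 0.03 without WT K79. Cenpe, the kinesin of the kinetochore, was likewise higher in KO K77 (63.0 CPM) than in WT K77 (56.7 CPM), and lower in KO than in WT of the other numbers. Its log2 fold change was -0.28, but -0.48 without WT K77, where it was called (edgeR adjusted p = 0.0416), and -0.08 without WT K79.

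Spindle assembly depends on the kinase encoded by Aurka and on its activator Tpx2. Tpx2 had 95.2, 96.5 and 75.9 CPM in KO, against 111.4, 120.2 and 100.2 CPM in WT. The groups did not overlap (log2 fold change -0.31, SE 0.102, edgeR adjusted p = 0.118, and 0.00834 with the block). Aurka averaged 25.9 ± 3.80 CPM in KO and 29.4 ± 3.56 CPM in WT (SD, n = 3 each), with overlap and an edgeR adjusted p of 0.505. Of the microtubule-binding proteins, Nusap1 (-0.27) was called with the block (adjusted p = 0.0312) and Hmmr (-0.19) in neither fit.

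Of the 5 genes of mitotic kinesins, motor proteins that move or order spindle microtubules, 1 fell and 4 were not called, and 4 fell with the block. Kif15, which works beside Kif11 in keeping the spindle poles apart, had 60.6, 60.2 and 52.4 CPM in KO, against 73.8, 93.8 and 73.4 CPM in WT. There was no overlap, and WT K79 stood well above the other WT libraries. Kif15 fell by 0.48 (SE 0.107, edgeR adjusted p = 0.0279), a call kept without WT K79 (0.0395) and lost without KO K79 (0.0826) or KO K80 (0.138). Kif11, the motor that pushes the poles apart, averaged 71.3 ± 12.3 CPM in KO and 88.9 ± 7.15 CPM in WT (SD, n = 3 each), with an edgeR adjusted p of 0.171, and 0.0246 with the block. Kif22 (-0.34) and Kif4 (-0.31), motors that bind chromosome arms, were called with the block, Kif22 also without WT K80 (edgeR adjusted p = 0.0363), and Kif2c (-0.22), which takes microtubule ends apart, was not. Kif4 lies on the X chromosome, and of its transcript windows 16.7% are shared, mainly with Pdzd11.

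The 6 genes of the central spindle and cytokinesis had log2 fold changes from -0.32 to -0.21. By edgeR, DESeq2 and limma voom 0 were called, with 5 at an unadjusted p under 0.05 by edgeR, and with the block Prc1, Anln, Kif20a and Racgap1 fell. Prc1, which bundles the microtubules of the central spindle, had 51.1, 50.2 and 41.1 CPM in KO, against 57.6, 66.7 and 53.1 CPM in WT. The groups did not overlap, and KO K77 and WT K80 were close (log2 fold change -0.32, SE 0.111, edgeR adjusted p = 0.142, and 0.0225 with the block). Prc1 shares 29.6% of its transcript windows, mainly with its neighbour Rccd1, and Kif20a shares 32.2% with Cdc23, so both are uncertain. Racgap1 and Kif23, which together form the centralspindlin complex, averaged 101.2 ± 12.7 and 54.7 ± 6.27 CPM in KO, against 122.4 ± 14.6 and 66.0 ± 10.0 CPM in WT (SD, n = 3 each). Anln, a scaffold of the contractile ring, stood at -0.32, and Ect2, the exchange factor that activates RhoA there, at -0.21.

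Condensin and chromosome structure genes had the lowest median of the 9 role groups, -0.45. Their mean log2 CPM, KO minus WT, was -0.38, as for the chromosomal passenger complex, and -0.09 within K77. Of the 7 condensin and chromosome structure genes, 2 fell and 5 fell with the block, against 2.62% and 4.45% of all genes tested. Ncapg, a subunit of condensin I, had 55.8, 44.6 and 42.5 CPM in KO, against 63.2, 70.0 and 63.0 CPM in WT. The groups did not overlap, with KO K77 the nearest to WT. Ncapg fell by 0.46 (SE 0.105, edgeR adjusted p = 0.0299), kept without KO K77 (0.00619) and lost without any other library (0.0516 to 0.146). Of its windows 19.2% are shared, mainly with its neighbour Lcorl. Smc2, an ATPase core subunit of both condensins, had 136.0, 119.5 and 116.9 CPM in KO, against 141.4, 164.7 and 154.0 CPM in WT. The groups were apart by little in K77. Smc2 fell by 0.31 (SE 0.0779, edgeR adjusted p = 0.0468), a call lost with RLE size factors, without either of the KO libraries K79 and K80 (0.187 and 0.206) and without WT K79 or WT K80 (0.106 and 0.1).

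Ncapd2, another condensin I subunit, had 246.7, 154.8 and 139.5 CPM in KO, against 272.5, 287.3 and 234.5 CPM in WT. KO K77 lay within the WT range and the other KO libraries far below it (log2 fold change -0.56, SE 0.18, edgeR adjusted p = 0.115, and 0.0118 with the block). Without KO K77 it stood at -0.85 and was called (edgeR adjusted p = 0.00169). Ncaph (-0.45), of the same complex, was called by edgeR with the block (adjusted p = 0.00766) and without WT K80 (0.0163), and by DESeq2 (0.0155). Smc4 (-0.22), the partner of Smc2, was called in neither fit, with KO K77 at 162.9 CPM above WT K77 at 143.8 CPM, and was at -0.36 and called without WT K77 (edgeR adjusted p = 0.018). Top2a, the topoisomerase that untangles sister chromatids, had 383.2, 392.3 and 283.9 CPM in KO, against 463.3, 580.0 and 411.3 CPM in WT. KO lay below WT throughout (log2 fold change -0.46, SE 0.142, edgeR adjusted p = 0.1, and 0.00184 with the block). Mki67, whose product Ki-67 coats mitotic chromosomes and is the usual stain for cycling cells, had 313.4, 413.9 and 291.2 CPM in KO, against 277.1, 562.9 and 382.2 CPM in WT. The WT values spanned the KO values, with WT K77 the lowest of the 6 libraries and WT K79 the highest. Its log2 fold change was -0.26 with a 95% interval from -0.75 to 0.23 (edgeR adjusted p = 0.602), and 0.04 without WT K79.

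**Figure D3:**
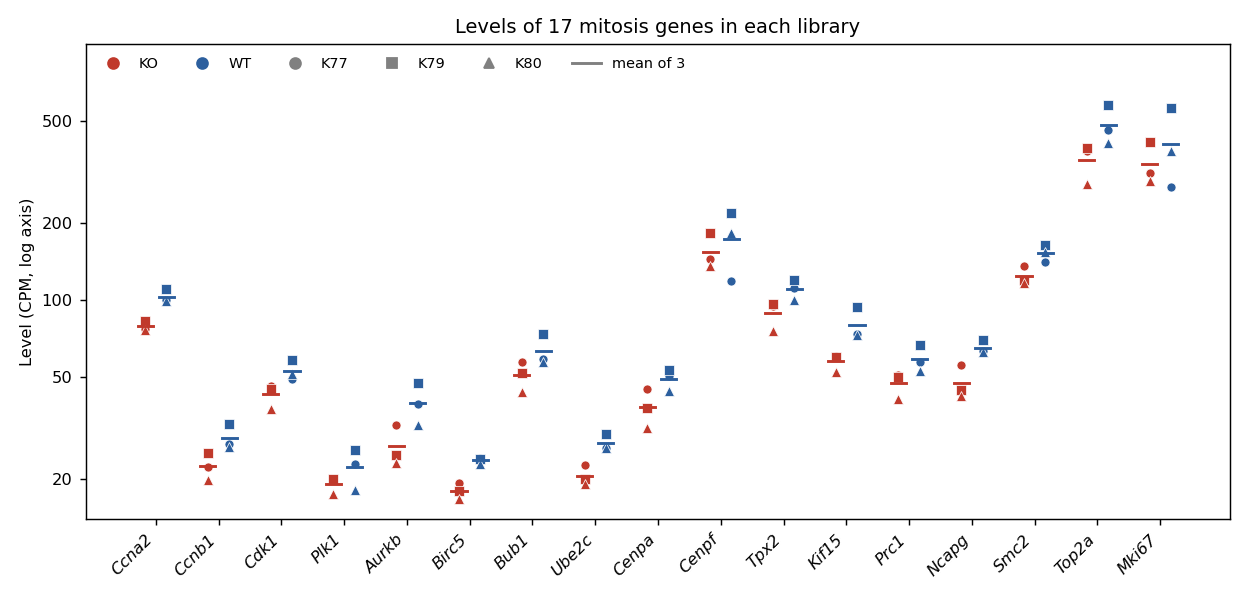
Level of 17 of the 42 genes in each library in CPM on a log axis, KO (red) left of WT (blue), with a symbol for each K number and a bar at the mean of 3 libraries. Most genes show WT K79 highest and KO K80 lowest, and Mki67 and Cenpf are spread most widely in WT.

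The header of the authors' deposited table does not say which genotype its folds put on top. They were taken as KO over WT, since 777 of 777 calls in common with edgeR then have equal signs. The authors' deposited table called 15 of the 42 lower and 0 higher, against 471 called lower over all its rows (1.3%). Those rows were not filtered on low counts, while all 42 genes passed the filter. The 1.3% is therefore not comparable with the 2.62% of genes tested by edgeR. Its lowest adjusted p among them was that of Ncapd2 (1.23e-09 in the authors' deposited table, log2 fold -0.55). Mki67 was called there too (authors' deposited table, adjusted p = 0.0371, log2 fold -0.26), although its KO and WT libraries overlap.

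Other genes of the cell cycle were described from lists written by function. Over all genes tested 2.62% were called lower, and 4.45% with the block. At an unadjusted p under 0.05, 1161 of 13835 were lower and 1378 higher by edgeR. The first list, 74 further mitosis genes, had 6 that fell (8.11%), 0 that rose and 68 without a call, with 72 below 0 and a median of -0.28. At an unadjusted p under 0.05 edgeR had 34 lower and 1 higher, and DESeq2 and limma voom called 0 higher. With the block 23 fell (31.1%). The 6 were Kntc1 (-0.48) of the checkpoint complex that recruits dynein, the cohesin acetyltransferase gene Esco2 (-0.57), the kinetochore genes Ndc80 (-0.62), Ska1 (-0.65) and Cenpp (-0.76), and Shcbp1 (-0.50). Bub3, which partners Bub1, was the highest at 0.28 (edgeR adjusted p = 0.176). Each of the 6 lost its call without 1 or more of the libraries, and the count was 3 without KO K79, 0 without KO K80 (20 at an unadjusted p under 0.05 by edgeR), 2 without WT K77 and 1 without WT K79. Of 22 genes of the DREAM complex, its E2F partners and the mitotic activators, 8 were lower and 0 higher at an unadjusted p under 0.05 by edgeR. DESeq2 and limma voom called 0 higher. By edgeR 0 rose and 2 fell (9.09%, against 2.62% of all genes tested). These were the E2F partner Tfdp2, at 80.7 ± 5.73 CPM in KO and 113 ± 6.73 CPM in WT, and the repressor E2f7, at 24.0 ± 2.44 CPM in KO and 34.6 ± 2.93 CPM in WT (SD, n = 3 each). Tfdp2 kept its call without each library in turn, and E2f7 lost it without KO K79, KO K80 or WT K77. With the block 6 fell (27.3%). Foxm1, an activator of G2 and M phase genes, averaged 80.1 ± 13.5 CPM in KO and 107 ± 13.6 CPM in WT (log2 fold change -0.42, edgeR adjusted p = 0.0927, and 0.00158 with the block), a gene picked after its values were seen.

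S-phase genes copy the DNA before mitosis. The list has 46 tested genes, and edgeR called 16 of them lower (34.8%), 0 higher and 30 neither, with a median of -0.34. With the block 22 of them fell (47.8%). Over all genes tested the shares called lower were 2.62%, and 4.45% with the block. At an unadjusted p under 0.05 edgeR had 35 lower and 0 higher, and DESeq2 and limma voom called 0 higher. The 6 with the lowest p were Mcm6 (-0.37), Cdc7 (-0.35), Pola1 (-0.54), Prim1 (-0.39), Chaf1b (-0.47) and Rrm2 (-0.53), genes of the replicative helicase, its activating kinase, the primase complex, histone deposition and nucleotide supply. The count was 1 without KO K80, 2 without KO K79, 4 without WT K80 and 8 without either of WT K77 and WT K79. The medians of the S-phase genes and of the 42 mitosis genes lay close together, and no test of a difference between the lists was made. Of 21 G1 cyclins, kinases and inhibitors, with a median of -0.12, 4 were lower and 1 higher at an unadjusted p under 0.05 by edgeR. DESeq2 called 1 higher. By edgeR 19 were not called, 0 rose and 2 fell (9.52%, against 2.62% of all genes tested). These were cyclin D2 (Ccnd2), at 463 ± 36.0 CPM in KO and 625 ± 69.4 CPM in WT, and the inhibitor gene Cdkn2c, at 10.7 ± 0.544 CPM in KO and 15.4 ± 1.38 CPM in WT (SD, n = 3 each). Ccnd2 lost the call when KO K79, KO K80 or WT K77 was left out, and Cdkn2c when any library but WT K80 was. With the block 2 fell and 1 rose (Btg2, an antiproliferative gene, by 0.40 in the unblocked fit).

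Markers of the cells that divide and of those that do not were set beside these values. Of 14 ventricular zone progenitor genes tested 3 rose (among them Gsx2 by 0.80 and Id4 by 0.67) and 0 fell by edgeR. Over all genes tested 3.64% were called higher and 2.62% lower. Of the 14, 2 were lower and 5 higher at an unadjusted p under 0.05 by edgeR. DESeq2 and limma voom each called 1 lower and 3 higher. The log2 fold changes of the 14 ran from -0.61 to 0.80, with 6 below 0 and a median of 0.02. Their summed level ran from 1675 to 1891 CPM in KO and from 1606 to 1884 CPM in WT. With the block 5 rose and 1 fell. Gsx2 and Id4 lost the call without KO K77, and Id4 also without KO K79 or KO K80. Of 15 genes of postmitotic neurons 1 rose and 1 fell (2 and 2 with the block), with a median of 0.01 and a summed level of 9767 to 10400.0 CPM in KO and 9890 to 11660 CPM in WT. Of 8 oligodendrocyte precursor genes, a lineage that also divides, 5 fell by edgeR and by limma voom and 6 by DESeq2, and 0 rose by any of them, with 0 higher at an unadjusted p under 0.05. With the block 6 of the 8 fell. Log2 fold changes of the 8 ran from -4.07 to 0.44, with 6 below 0 and a median of -1.91. Their summed level was 87.4 to 97.2 CPM in KO and 149.1 to 177.5 CPM in WT. Their part in the lower mitosis transcripts was not tested. Endothelial and pericyte, erythroid and microglial lists summed to 27.2 to 40.6, 9.79 to 21.2 and 3.35 to 4.45 CPM in KO, against 28.1 to 50.1, 15.4 to 26.5 and 3.65 to 4.65 CPM in WT, and their part was not tested either. The filter on low counts was passed by 10 of 11 endothelial and pericyte, 5 of 10 erythroid and 1 of 9 microglial genes, so the counts of calls say little for the last 2 lists. Of the genes tested edgeR, DESeq2 and limma voom called 0, with 0 at an unadjusted p under 0.05 by edgeR. In the erythroid list Hba-a1 was at 0 in every library, and with the block 1 gene, Hbb-y, was called lower.

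**Figure D4:**
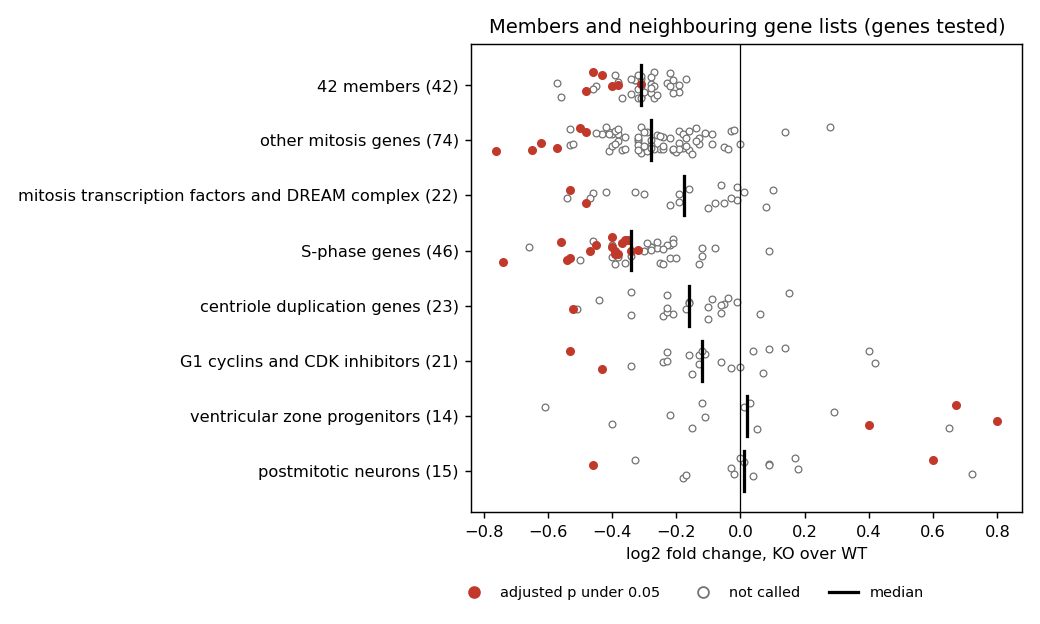
Log2 fold change, KO over WT, of each tested gene in the 42 mitosis genes and in 7 neighbouring lists (vertical jitter has no meaning). Filled points have an adjusted p under 0.05 by edgeR, and black bars are medians, which are -0.31 for the 42 genes, -0.34 for S-phase genes, 0.02 for progenitor genes and 0.01 for postmitotic neurons.

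The calls moved with the block, with the filter on low counts and with the libraries left out of the unblocked fit. The share of the 42 called lower was 14.3% in the unblocked fit and 61.9% with the K number as a block. It was 38.1% with no filter, where 21687 genes enter the fit and 2.52% of them were called lower. Without KO K77 it was 26.2%, against 2.0% of all genes, and without WT K79 it was 4.76%, against 2.84%. It was 2.38% without KO K79 and 0% without KO K80, where all genes stood at 1.5% and 1.25%. Without both K79 libraries it was 2.38%, against 1.86% of all genes, and Ccna2 was then the 1 gene called. In each of these settings all 42 fold changes were below 0, except that 40 were without WT K79.

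**Figure D5:**
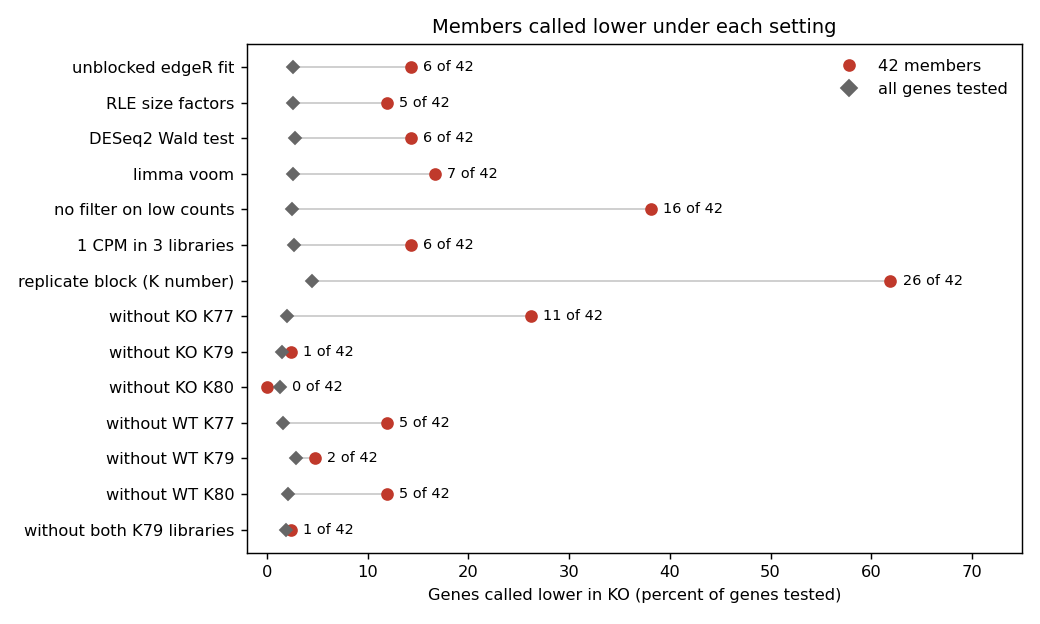
Percent of the 42 genes (circles) and of all genes tested (diamonds) called lower in KO at an adjusted p under 0.05, under each setting down the page, with the number of the 42 written beside it. The share of the 42 ranges from 0 to 61.9%.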

How the data were processed

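Libraries of poly-A selected RNA were sequenced as single reads, per the labels' protocols. Build mm9 and, among tools, DESeq 1.2.2, HTSeq 0.5.3p3 and TopHat 1.2.0 are listed in the submitters' processing notes without saying what each did. No source used here gives the annotation or the strand setting. The authors deposited whole read counts per gene for 36291 rows. Rows that name no gene (19.75 to 21.77% without a feature, 1.94 to 1.99% ambiguous) were left out. The authors' deposited table gives, per the file headers, fold changes as a ratio and as log2, with raw and adjusted p-values.

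Counts were tested in R 4.3.3 with edgeR 4.0.16 (TMM, filterByExpr minimum count 10, quasi-likelihood, Benjamini-Hochberg over 13835 genes, threshold 0.05), and log2 CPM used a prior count of 2. SE is the log2 fold change over the square root of F. Alternatives used DESeq2 1.42.0, limma voom 3.58.1, RLE scaling, other filters and the K number as a block. Libraries were left out of the unblocked edgeR fit only, and not with the block. The fit was tested on simulated data. The common biological coefficient of variation was 9.26%.

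Same-numbered libraries deviated together (correlation across genes 0.256, 0.197 and 0.175 for K77, K79 and K80), so the number was taken to pair them. No library repeated another: chi-square over its degrees of freedom was 3.63 to 10.1 between libraries of a genotype. Shared windows are the 36-base stretches of a gene's longest coding transcript (GENCODE M21) found in another gene's transcript on either strand.

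The 42 genes and all lists were chosen with earlier results of these data known. Values in every library are given for called genes, for Mki67, Top2a, Cdk1, Ccnb1, Aurkb, Plk1 and Cenpf and for the lowest p of each of 9 role groups, and other lists are named by lowest p, up to 6 called, except 1 gene that is not reported here. Ncapd2, Ccnb2 and other genes beyond this rule were picked after their values were seen.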

Additional observations from a re-analysis of the deposited data

How the results depend on the processing

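The direction of the 42 genes held in each setting, except that without WT K79 Cenpf stood at 0.03 and Mki67 at 0.04 on the log2 scale (the cause was not tested). With 1 library left out Cenpf ran from -0.38 to 0.03 and Mki67 from -0.48 to 0.04. Their mean log2 difference stayed within -0.38 to -0.22 when a library was left out, and between -0.33 and -0.32 with RLE, total-count scaling, a prior count of 0.5 or no filter. With the K number as a replicate block, edgeR called 848 genes higher and 615 lower, 26 of the 42 lower, 23 other mitosis genes lower, 6 of the DREAM list lower, 1 G1 gene (Btg2) higher and 2 centriole genes lower. The 6 genes called without the block were among the 26. With no filter 546 genes, 16 of the 42, 18 other mitosis genes and 5 of the DREAM list were lower, and 1 G1 gene was higher. DESeq2 gave 1 G1 gene higher and 1 lower. Without both K79 libraries the lower counts were 1 of the 42, 1 other mitosis gene, 1 DREAM gene, 2 S-phase genes, 0 G1 genes and 0 centriole genes (3 and 3 of these last at an unadjusted p under 0.05). Leaving out 1 library gave 270 to 645 higher and 175 to 399 lower over all genes, 0 to 11 of the 42 lower, 0 to 6 other mitosis genes, 1 to 3 DREAM genes, 1 to 12 S-phase genes, 0 to 2 G1 genes lower and 0 to 1 higher, and 0 to 1 centriole genes. Without KO K80, where edgeR called 0 of the 42, 13 were lower at an unadjusted p under 0.05. So were 20 other mitosis genes, and 884 of all 14001 genes tested. The causes of these moves were not tested. In the window from 150 bases before to 50 after the start, 81.1% of the windows held CHR (3956 of all 32851 windows did), 78.4% CCAAT (28.6% of all windows), 10.8% CACCT (38.5%) and 2.7% CACCTG (13.8%).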

Other observations

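Centriole duplication genes, which a dividing cell uses to copy its centrosome, were counted as a list beside the 42. By edgeR 1 of 23 fell (4.35%, against 2.62% of all genes tested), 0 rose and 22 had no call, with a median log2 fold change of -0.16. At an unadjusted p under 0.05 there were 9 lower and 0 higher, and DESeq2 and limma voom called 0 higher. The gene that fell was Cep135, a centriole scaffold gene, at 37.0 ± 4.23 CPM in KO and 52.8 ± 7.12 CPM in WT (SD, n = 3 each; log2 fold change -0.52, SE 0.115, edgeR adjusted p = 0.0276). Its call was lost without KO K79, KO K80, WT K77 or WT K80. The summed level of the list was 1060.0 to 1213 CPM in KO and 1216 to 1266 CPM in WT.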
